A study of Mus musculus with 6 samples.

Results

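The genes described here are those carried by the mitochondrial genome itself. They were chosen as every row of the deposited table whose Ensembl identifier maps in GENCODE M21 to a symbol starting with mt-, which gave 31 of the 14864 identifiers. RNA was sequenced from marginal zone B cells, which sit at the border of the splenic white pulp, flow-sorted from spleens of C57BL/6 mice at 8 weeks of age. The labels give 3 libraries as genotype WT and 3 as CK2[alpha]-cKO, a conditional knockout of the catalytic subunit alpha of the kinase CK2. The comparison asks how gene expression differs between these genotypes. The sources used here do not give the Cre line or the deleted exons. Csnk2a1, the gene of that subunit, showed no lower level in cKO-labelled libraries: it stood at 4069, 3861 and 3939 normalised reads (read counts divided by 1 factor per library) in WT and at 4124, 3951 and 4060 in cKO. The log2 difference was 0.03 ± 0.05 (SE, limma adjusted p = 0.734). A total over all exons does not show the loss of a single exon, so this gene does not check the labels, and WT and cKO mean the libraries so labelled throughout, also where a direction is given. Nothing says that each library came from its own mouse, so p values measure only how far libraries scatter, and that scatter may be technical.

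The mitochondrial genome is a small circle, present in many copies per cell, that is transcribed from both strands into long precursors. These are cut at the transfer RNAs that lie between most genes, which releases messenger, ribosomal and transfer RNAs. All of its proteins are core subunits of the respiratory chain (complexes I, III and IV) or of the ATP synthase, whereas the polymerase, the ribosomal proteins and the processing enzymes are encoded in the nucleus. The annotation holds 37 mitochondrial genes, of which 12 of 13 protein-coding genes and 19 of 22 transfer RNAs were measured. Both ribosomal RNAs, mt-Atp8, mt-Td, mt-Tk and mt-Ts1 were not analysed here.

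Pieces of mitochondrial sequence also lie in the nuclear genome as pseudogenes, and a read that matches both places cannot be told apart. GENCODE M21 holds 7 pseudogenes on chromosome 1 that matched a mitochondrial protein-coding gene over at least 100 bases at 99% identity or more. Such copies are shown here because the levels of the 12 protein-coding genes differed with them. The first 90 bases of mt-Atp6 (GRCm38 chrM:7927-8016, plus strand) and of its copy Gm10925 (chr1:24614562-24614651, minus strand) were the same. In mt-Nd3 (chrM:9459-9548, plus strand) and its copy Gm28438 (chr1:24613030-24613119, minus strand), the first 90 bases differed at 1 base. For contrast, bases 2 to 91 of mt-Cytb (chrM:14146-14235, plus strand) and its closest annotated relative Gm11410 (chr4:80003990-80004079, plus strand) differed at 5. Capitals mark the bases that differ within a pair, and all sequences were read from the GENCODE M21 transcripts.
mt-Atp6: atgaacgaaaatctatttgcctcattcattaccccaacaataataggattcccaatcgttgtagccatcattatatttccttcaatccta
Gm10925: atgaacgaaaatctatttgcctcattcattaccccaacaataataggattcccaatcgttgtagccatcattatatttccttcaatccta
mt-Nd3: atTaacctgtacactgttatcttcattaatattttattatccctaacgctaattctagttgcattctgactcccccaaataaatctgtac
Gm28438: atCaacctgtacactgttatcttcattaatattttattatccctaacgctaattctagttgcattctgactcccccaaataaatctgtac
mt-Cytb: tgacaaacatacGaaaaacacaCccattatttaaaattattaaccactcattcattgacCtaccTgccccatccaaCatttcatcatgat
Gm11410: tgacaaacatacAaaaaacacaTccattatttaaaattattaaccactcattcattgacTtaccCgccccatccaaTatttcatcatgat

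Over their whole aligned lengths, mt-Co2 matched Gm28661 over 681 bases, mt-Atp6 matched Gm10925 over 678, mt-Co3 matched Gm28437 over 783 and mt-Nd4l matched Gm10222 over 294, each with 0 mismatches. The alignment of mt-Nd3 with Gm28438 ran over 345 bases with 1 mismatch. Copies of 2 further genes covered only a part: Gm28439 matched 876 of the 1378 bases of mt-Nd4 with 0 mismatches, and Gm29216 matched 483 of the 1545 bases of mt-Co1 with 1. The closest relatives of mt-Cytb, mt-Nd6, mt-Nd5 and mt-Nd1 were 92.9%, 93.6%, 92.3% and 76.6% identical over what aligned. Only annotated transcripts were searched, and the build named in the submitters' processing notes is mm9, not that of the annotation.

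**Figure D1:**
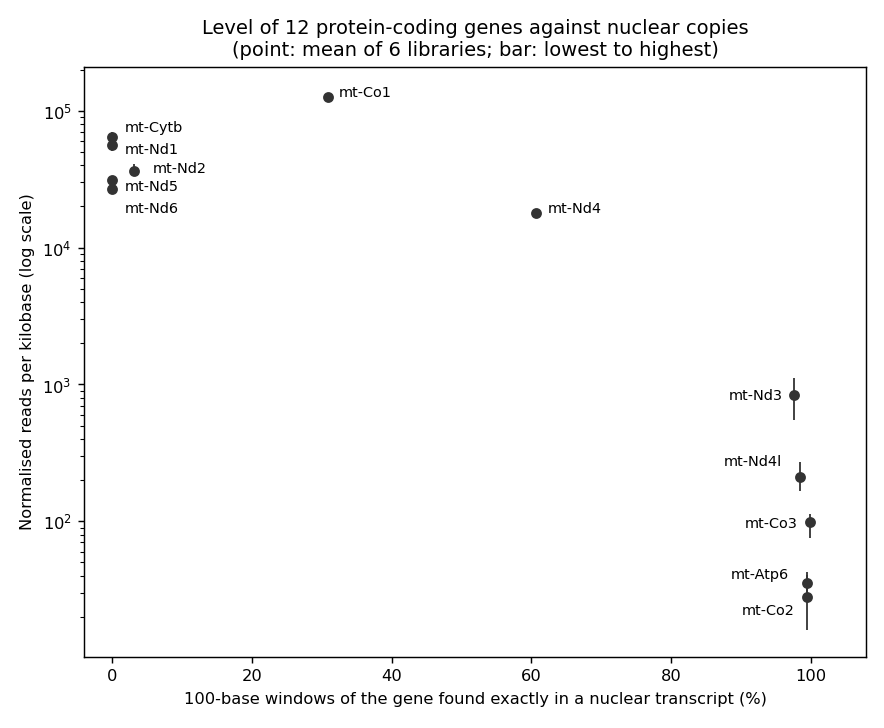
Mean level of the 12 measured protein-coding mitochondrial genes in normalised reads per kilobase (log axis) against the percentage of a gene's 100-base windows found unchanged in an annotated nuclear transcript. Points are means of 6 libraries and bars run from the lowest to the highest library; the 5 genes at 97.6% to 99.9% lie between 27.8 and 839, and the other 7 lie between 17919 and 126930.

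The protein-coding genes fell into 2 ranges of level. Values are normalised reads, read counts divided by the authors by 1 factor per library, and levels are compared between genes only per kilobase of gene length. In the 5 genes with a nearly full-length copy, 97.6% to 99.9% of the 100-base windows occurred unchanged in a nuclear transcript, and the mean level was 27.8 to 839 normalised reads per kilobase. The 4 genes without such a window, mt-Nd1, mt-Nd5, mt-Nd6 and mt-Cytb, stood at 26646 to 64141 per kilobase. The lowest of the latter was 31.8 times the highest of the former. The 3 genes with a partial match, mt-Nd2 (3.19% of windows), mt-Co1 (30.8%) and mt-Nd4 (60.8%), stood at 36303, 126930 and 17919 per kilobase. These parts depend on the window length, and the read length is not given. With windows of 50 bases they were 8.19%, 51.1% and 62.2%, and mt-Nd5 had 7.61%. Dividing all reads of a gene by its 100-base windows without a match gave 49187 normalised reads per 1000 windows for mt-Nd4. It gave 196106 for mt-Co1, 70217 for mt-Cytb, 62784 for mt-Nd1, 41455 for mt-Nd2, 32927 for mt-Nd6 and 32846 for mt-Nd5. This takes it that no read came from the matched windows, which was not tested. How reads with several matches were counted is not given in the sources used here, and the part of the copies in these levels was not tested.

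Single libraries show how few reads the 5 copied genes held. mt-Co2 (ENSMUSG00000064354), a core subunit of cytochrome c oxidase, stood at 10.98, 17.9 and 21.5 normalised reads in the WT libraries and at 19.6, 15.2 and 28.9 in the cKO libraries, always listed in the order of their replicate numbers. mt-Atp6 (ENSMUSG00000064357), the proton channel subunit of the ATP synthase, stood at 19.8, 18.97 and 27.4 in WT and 26.7, 27.5 and 24.8 in cKO. mt-Co3, another oxidase subunit, lay between 58.8 and 89.1. Per kilobase, mt-Co2 and mt-Co3 had means of 27.8 and 98.1 normalised reads, beside 126930 for mt-Co1, the catalytic subunit of the same complex. mt-Nd4l, a small complex I subunit, lay between 49.3 and 80.2. mt-Nd3 (ENSMUSG00000064360), also of complex I and the one whose copy differs at 1 base, stood highest of the 5, at 190, 310 and 256 in WT and 386, 276 and 334 in cKO. In all 5 genes the values of the groups overlapped.

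The pseudogenes themselves were measured for 5 of the 7 copies and lay between 7.83 and 56.8 normalised reads. Gm28661, the copy of mt-Co2, stood at 26.4, 29.5 and 27.4 in WT and 34.8, 45.5 and 56.8 in cKO. Gm28439, the copy of the start of mt-Nd4, stood at 10.98, 14.8 and 7.83 in WT and 16.05, 18.95 and 23.7 in cKO. In both, each cKO library was above each WT library, which held for 15.9% of all genes tested. The groups overlapped for Gm10925, Gm28437 and Gm29216. None of the 5 passed the limma test, where 10.1% of all genes tested did (adjusted p = 0.115 for Gm28661, 0.18 for Gm28439, and 0.282 to 0.91 for the others).

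**Figure D2:**
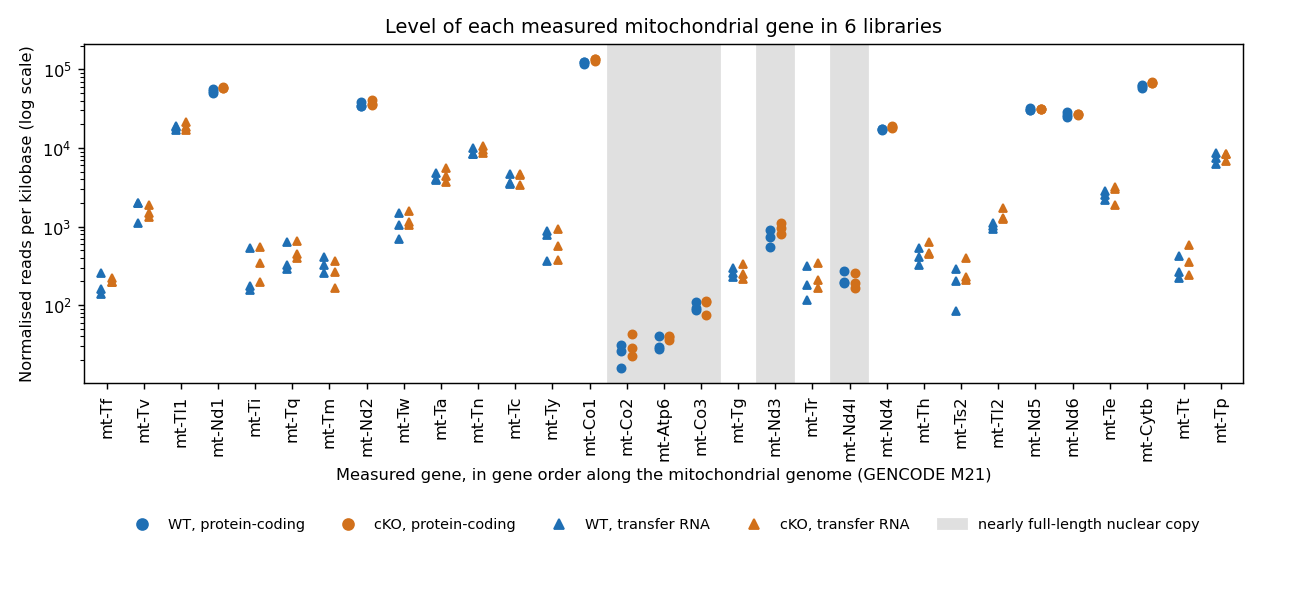
Level of the 31 measured genes in normalised reads per kilobase (log axis), in gene order along the mitochondrial genome, with 1 point per library (3 WT, 3 cKO), circles for protein-coding genes and triangles for transfer RNAs. Grey bands mark the 5 genes with a nearly full-length nuclear copy, which lie below the other protein-coding genes in every library.

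The other 7 protein-coding genes were among the most abundant RNAs of these cells. mt-Co1 ranked 1 of all 14864 identifiers by mean value, with no correction for length, mt-Cytb ranked 8, mt-Nd5 13, mt-Nd1 14, mt-Nd2 24, mt-Nd4 68 and mt-Nd6 177. Together they held 99.1% of the reads of the 31 genes, and mt-Co1 alone held 42.6%. Per kilobase the order was mt-Co1 (126930), mt-Cytb (64141), mt-Nd1 (56289), mt-Nd2 (36303), mt-Nd5 (31063), mt-Nd6 (26646) and mt-Nd4 (17919). mt-Cytb and mt-Nd1 overlapped across libraries, but within each library mt-Nd1 stood at 72.4% to 74.1% of mt-Cytb before the correction for length. The standard deviations of these 7 genes were 0.941% to 7.8% of the group mean.

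Between the genotypes, none of the 31 genes passed the threshold. Limma called 0 of 31, with 4 at an unadjusted p under 0.05, where 10.1% of the 14855 genes tested were called and 26.8% had an unadjusted p under 0.05. edgeR called 0 of 31 (9.92% of all genes) with 4 under 0.05, and DESeq2 0 of 31 (11.0% of all genes) with 5. The lowest adjusted p was 0.131 in limma (mt-Tl2), 0.111 in edgeR and 0.065 in DESeq2 (mt-Nd1 in both). Of the 31 genes 26 had a log2 difference (cKO minus WT, of normalised reads + 1) above 0 and 5 below, and 25 were above 0 when all libraries, or all non-immunoglobulin genes, were scaled to the same total. The median was 0.12, beside -0.00086 over all genes tested; it was 0.0443 without cKO replicate 1 and 0.196 without cKO replicate 3. In 5 of the 31 genes each cKO library was above each WT library and in 0 below, where this held for 15.9% and 15.6% of the genes tested, together 31.6%. These genes are cut from shared precursors and are not independent of each other.

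In complex I, whose mitochondrial subunits carry the Nd names, the abundant genes had cKO levels at most 11.6% above WT, and none passed the test. mt-Nd1 (ENSMUSG00000064341), of the membrane arm next to the ubiquinone site, stood at 48586, 53510 and 50671 normalised reads in WT and 57914, 56246 and 56287 in cKO. Each cKO library was above each WT library, and the log2 difference was 0.16 ± 0.07 (SE), a change of 11.6% with a 95% interval of 0.967% to 23.5% (limma adjusted p = 0.151). mt-Nd4 (ENSMUSG00000064363), a proton-pumping subunit, stood at 23247, 24183 and 23768 in WT and 26527, 24610 and 25818 in cKO. Those groups did not overlap either, at 8.05% higher in cKO (-0.994% to 17.9%, adjusted p = 0.238). mt-Nd2, another pumping subunit, gave 36659 ± 2432 (SD, n = 3) in WT and 38706 ± 3020 in cKO, with overlapping groups and an adjusted p from limma of 0.557.

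The remaining abundant subunits, mt-Nd5 and mt-Nd6, lay closest to 0. mt-Nd5 (ENSMUSG00000064367), the outermost pumping subunit, stood at 54741, 55353 and 58931 normalised reads in WT and 56360, 57226 and 57340 in cKO. mt-Nd6 (ENSMUSG00000064368) stood at 13034, 13763 and 14778 in WT and 13488, 13867 and 14045 in cKO. In both, WT replicate 3 held the highest value of all 6 libraries and WT replicate 1 the lowest. The difference of mt-Nd5 was 1.18% with a 95% interval of -8.33% to 11.7%, and that of mt-Nd6 was -0.301% with -8.96% to 9.19% (limma adjusted p = 0.9 and 0.975). The low copied subunits mt-Nd3 and mt-Nd4l gave log2 differences of 0.41 ± 0.18 and -0.11 ± 0.23 (adjusted p = 0.162 and 0.812).

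mt-Nd6 is the only protein-coding gene on the other strand, and its end overlaps that of mt-Nd5 by 14 bases. The last 30 bases of each gene are shown because reads from the shared stretch cannot be assigned without a strand setting. That setting is not given in the sources used here. Without it, reads of the opposite strand cannot be told apart over the rest of mt-Nd6 either. Its level may therefore include plus-strand RNA, which was not tested. The bases shown lie at GRCm38 chrM:13536-13565 (mt-Nd5, plus strand) and chrM:13552-13581 (mt-Nd6, minus strand), with the shared bases in capitals.
mt-Nd5: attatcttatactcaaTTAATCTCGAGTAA
mt-Nd6: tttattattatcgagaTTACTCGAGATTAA
Relative to the summed plus-strand protein-coding genes, mt-Nd6 stood at 3.2%, 3.16% and 3.42% in WT and 2.87%, 3.08% and 3.05% in cKO. Each cKO library was below each WT library, a log2 difference of -0.12. Relative to mt-Nd5 alone, mt-Nd6 stood at 23.8% to 25.1% in WT and 23.9% to 24.5% in cKO, and the groups overlapped. With 3 libraries against 3, an exact permutation test of any such ratio cannot give a p below 0.1.

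mt-Cytb (ENSMUSG00000064370), the mitochondrial subunit of complex III, stood at 65853, 72470 and 69591 normalised reads in WT and 79946, 75907 and 76495 in cKO. The groups did not overlap, and the difference was 11.8% with a 95% interval of 0.431% to 24.5% (log2 0.16 ± 0.07, limma adjusted p = 0.17). mt-Nd5 stood at 83.1%, 76.4% and 84.7% of mt-Cytb in WT and at 70.5%, 75.4% and 75.0% in cKO, while mt-Nd1 stood at 72.4% to 74.1% in all 6 libraries. The WT and cKO ratios of mt-Nd5 to mt-Cytb did not overlap, with WT replicate 2 the closest to the cKO libraries. The ratios to mt-Cytb were chosen after their values were seen and carry no test.

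In complex IV, mt-Co1 (ENSMUSG00000064351) stood at 178775, 190606 and 194117 normalised reads in WT and 207167, 199091 and 206881 in cKO. Each cKO library was above each WT library, by 8.86% on average with a 95% interval of -4.17% to 23.7% (limma adjusted p = 0.38). The copied genes mt-Co2 and mt-Co3 gave log2 differences of 0.32 ± 0.36 and 0.03 ± 0.21, and mt-Atp6 of the ATP synthase 0.26 ± 0.27 (adjusted p = 0.611, 0.946 and 0.579). Across the 7 abundant genes the 95% intervals reached from -8.96% to 24.5%. For the copied genes they reached further, up to 116% above WT in mt-Co2.

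**Figure D3:**
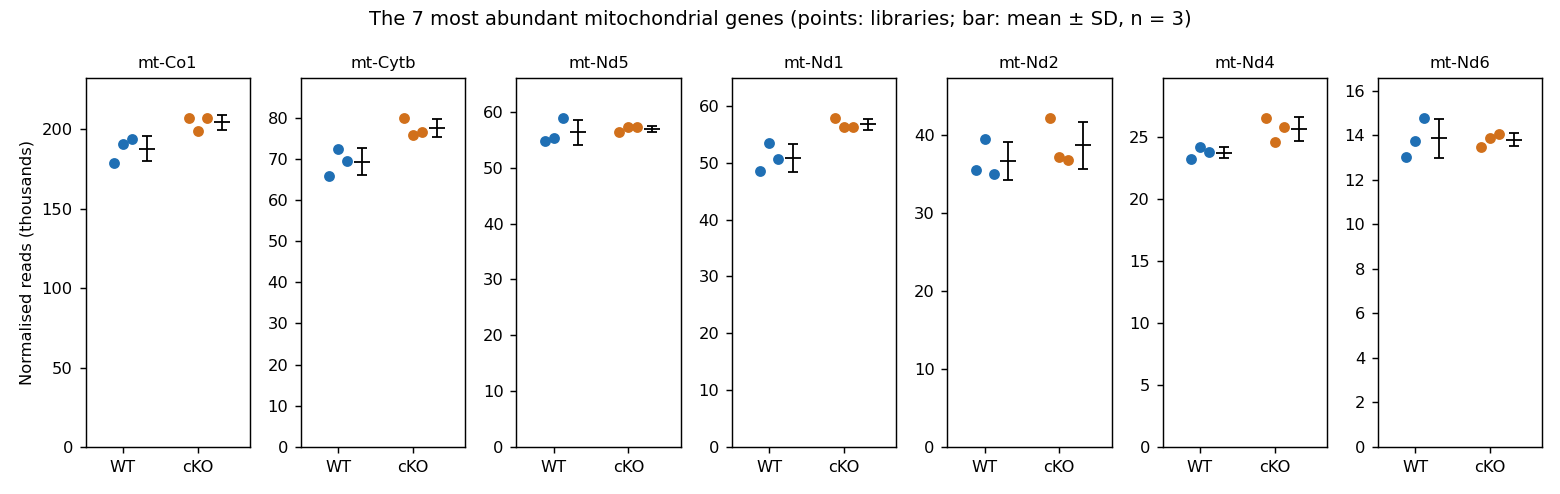
Normalised reads (axis in units of 1000) of the 7 most abundant mitochondrial genes in each library (points; 3 WT, 3 cKO), with the mean and SD of each group; each panel has its own axis from 0. The groups are apart in mt-Co1, mt-Cytb, mt-Nd1 and mt-Nd4 and overlap in mt-Nd5, mt-Nd2 and mt-Nd6.

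As a share of all normalised reads of a library, the 31 genes held 2.05%, 2.2% and 2.19% in WT and 2.33%, 2.25% and 2.31% in cKO. The means were 2.15% ± 0.0799 and 2.3% ± 0.044 (SD, n = 3 each), and each cKO library was above each WT library. The protein-coding genes alone gave 2.13% ± 0.0794 and 2.28% ± 0.0437. In 8 of the 12 protein-coding genes the lowest of the 6 values was that of WT replicate 1, and in 7 the highest was that of cKO replicate 1. Without WT replicate 1 the difference in the share of all 31 genes was 0.103 percentage points, against 0.149 with it. No p is given for a sum over genes chosen together. Of 6 measured nuclear RNAs 1 rose and 0 fell, where 5.08% of all genes tested rose and 4.97% fell. The 1 that rose, Terc, stood at only 7.69, 5.27 and 5.87 normalised reads in WT and 22.3, 19.9 and 21.7 in cKO. The median log2 difference of the 6 was 0.25, with 4 above 0 and 2 below, Malat1 (-0.2) and Neat1 (-0.48). The most abundant, Malat1, a long RNA kept in the nucleus, gave 103180 ± 8940 and 89724 ± 6949 normalised reads, with groups that did not overlap (limma adjusted p = 0.177). Its part in the shares was not tested. In bulk RNA, more mitochondrial genomes, more RNA per genome and more mitochondria-rich cells cannot be told apart.

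Transfer RNAs carry the amino acids into mitochondrial protein synthesis, and their genes are 59 to 75 bases long. The 19 measured ones held 0.0164% to 0.0212% of a library. Their reads were concentrated in 6 genes, which held 86.6% of the sum: mt-Tl1 at a mean of 1394 normalised reads, mt-Tn at 656, mt-Tp at 511, mt-Ta at 303, mt-Tc at 268 and mt-Te at 179. Of these 6, 5 lie on the minus strand, as mt-Nd6 does. Over all measured ones, the 7 on the minus strand had a median of 4060 normalised reads per kilobase (459 to 9243) and the 12 on the plus strand 337 (195 to 18581), so the ranges overlapped. The other 13 had means of 13.3 to 112, down to 5 reads in a single library. The lowest, mt-Tf, for phenylalanine, gave 12.6 ± 4.35 (SD, n = 3) in WT and 13.98 ± 1.02 in cKO. The best annotated match of mt-Tl1, mt-Ta, mt-Tn and mt-Tc lay in the nuclear gene Cep295, at 84.1% to 93.5% identity. The search for copies at 99% identity asked for at least 100 bases, so no transfer RNA gene could meet it. Whether mature transfer RNAs or longer precursors were counted was not tested, nor from which strand the reads came.

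The 2 leucine transfer RNAs are printed whole because mt-Tl1 was the most abundant transfer RNA and mt-Tl2 had the lowest adjusted p of the 31 genes in limma. mt-Tl1 lies between mt-Rnr2 and mt-Nd1 (GRCm38 chrM:2676-2750, plus strand), and mt-Tl2 just before mt-Nd5 (chrM:11671-11741, plus strand).
mt-Tl1: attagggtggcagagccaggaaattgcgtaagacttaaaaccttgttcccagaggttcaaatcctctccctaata
mt-Tl2: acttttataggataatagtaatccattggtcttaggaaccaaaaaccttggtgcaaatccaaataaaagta
mt-Tl2 (ENSMUSG00000064366) stood at 78.0, 71.7 and 66.5 normalised reads in WT and 123, 90.97 and 88.7 in cKO. It was the only transfer RNA whose groups did not overlap, with a log2 difference of 0.47 ± 0.18 that did not pass (limma adjusted p = 0.131). mt-Tl1 (ENSMUSG00000064340) stood at 1398, 1410 and 1271 in WT and 1624, 1373 and 1286 in cKO, and its groups overlapped (0.06 ± 0.09, adjusted p = 0.677).

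For the rest of the abundant transfer RNAs the groups overlapped as well. mt-Tn, for asparagine, gave 630 ± 63.8 normalised reads in WT against 683 ± 76.7 in cKO, and mt-Tp, for proline, 495 ± 83.1 and 527 ± 59.4 (SD, n = 3 each). mt-Ta, mt-Tc and mt-Te, for alanine, cysteine and glutamate, gave log2 differences of 0.08 ± 0.15, 0.09 ± 0.15 and 0.07 ± 0.19. Over all 19, 16 log2 differences were above 0 and 3 below (mt-Tv, mt-Tm and mt-Ty), between -0.35 and 0.58. The largest, that of mt-Ts2, rested on 4.89 normalised reads in WT replicate 3. Adjusted p values were 0.131 to 0.986.

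**Figure D4:**
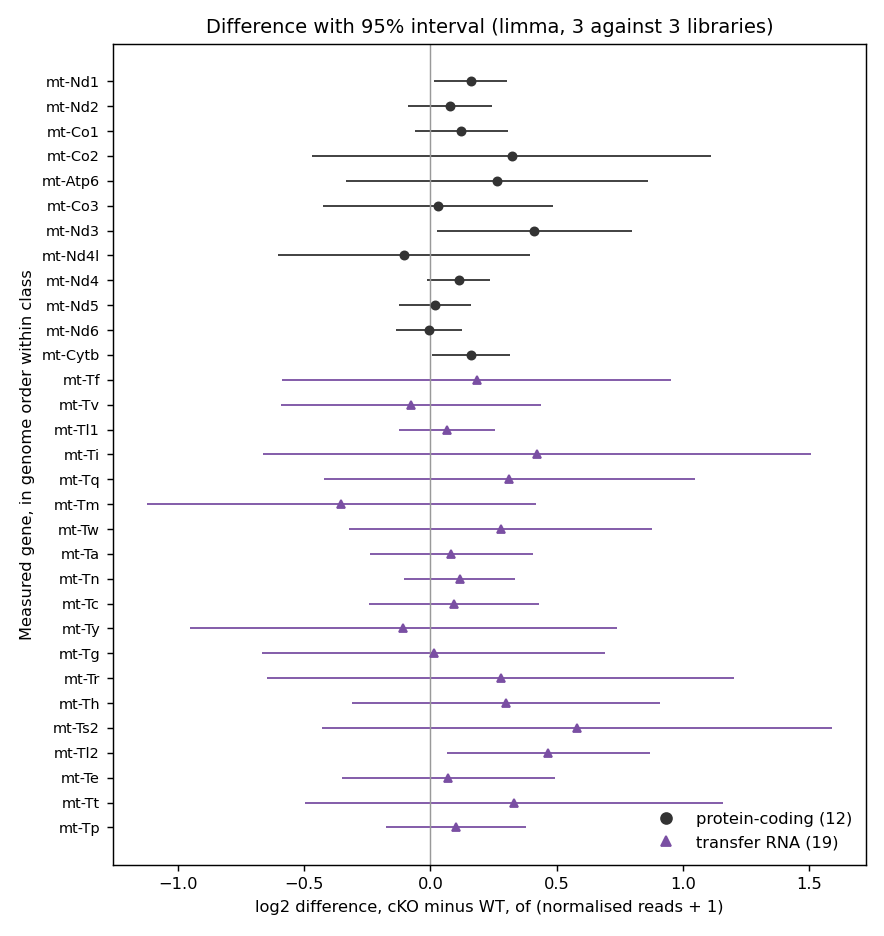
Log2 difference (cKO minus WT, of normalised reads + 1) of the 31 measured genes with its 95% interval from limma, circles for 12 protein-coding genes and triangles for 19 transfer RNAs. The intervals of mt-Nd1, mt-Nd3, mt-Cytb and mt-Tl2 leave out 0 before adjustment, and no gene passed after it.

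The transfer RNAs deviated by library within both groups. Of the 19, 11 had their highest value in cKO replicate 1 and 11 their lowest in WT replicate 3. The median deviation from a gene's own mean was -0.16, 0.21 and -0.34 (log2) in WT and 0.33, 0.07 and -0.14 in cKO. For the protein-coding genes these medians lay between -0.14 and 0.12. Relative to the protein-coding genes, transfer RNA reads stood at 0.851%, 0.898% and 0.773% in WT and 0.917%, 0.865% and 0.717% in cKO, and the groups overlapped. The 2 libraries with the highest medians, WT replicate 2 and cKO replicate 1, also held the most red cell RNA. The summed level of 7 erythroid genes, all measured, was 11103 and 5023 normalised reads there and 682 to 1392 in the other libraries. The same libraries had the highest sums of 10 macrophage genes, all measured, at 3102 and 2898 beside 1552 to 1898. They also had the highest sums of 3 of 7 neutrophil genes, at 151 and 131 beside 23.7 to 58.2. Of the macrophage genes, Adgre1, Cd68, Itgam and Marco did not follow this order. Adgre1 was lowest in cKO replicate 1 (250), and Itgam and Marco were highest in cKO replicate 3 (104 and 76.4). Of the short nuclear RNAs, Rmrp stood at 79.3 in cKO replicate 1 and 5.27 to 19.6 elsewhere, and Rn7sk at 161 and 44.5 to 68.1, and neither was high in WT replicate 2. The part of these RNAs in the transfer RNA levels was not tested.

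**Figure D5:**
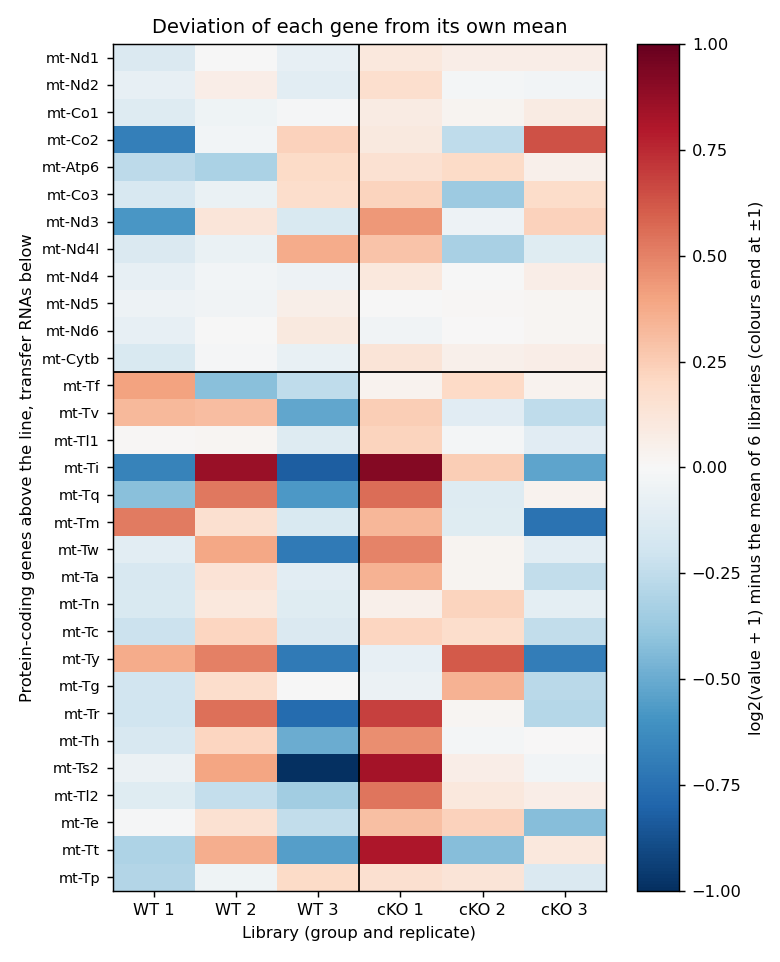
Log2 deviation of each gene from its own mean over the 6 libraries (colour, ending at ±1), with protein-coding genes above the line and transfer RNAs below and 1 column per library. Transfer RNAs are mostly high in cKO replicate 1 and WT replicate 2 and mostly low in WT replicate 3.

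Nuclear genes were compared in 9 lists, in which 157 different genes were tested. The lists cover the transcription, processing and translation of mitochondrial RNA. They also cover mitochondrial DNA replication, regulators of mitochondrial biogenesis, and mitophagy and mitochondrial stress. Of these 3 rose and 4 fell, together 4.46%, beside 10.1% of all genes tested (5.08% rose and 4.97% fell). Their median log2 difference was 0.02, beside -0.00086 over all genes. Of 12 genes of mitochondrial DNA transcription none was called, with a median of 0.11. Polrmt, the mitochondrial RNA polymerase, gave 1097 ± 4.02 normalised reads in WT and 1044 ± 15.2 in cKO, and Tfam, which packs the DNA and opens promoters, 1780 ± 30.4 and 1749 ± 77.4 (SD, n = 3 each; limma adjusted p = 0.46 and 0.817; both chosen after their values were seen). The lowest adjusted p of that list was 0.115, for the elongation factor gene Tefm.

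Neither did any of 20 genes of RNA cleavage, polyadenylation and stability pass (median 0.05; lowest for Trmt10c, a subunit of the enzyme that cuts at the start of transfer RNAs, at 0.108). The same held for 19 genes of DNA replication (median -0.05; Samhd1, a nucleotide hydrolase, 0.133), 19 of transfer RNA modification (0.02; Osgepl1, 0.0773) and 13 translation factors (0.02; the elongation factor gene Gfm1, 0.177). Osgepl1, Trmt10c and Gfm1 overlap other genes. Without cKO replicate 2, Samhd1 fell, with a log2 difference of -0.39 and an adjusted p of 0.00128.

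The 7 called genes lay in 4 lists. Among 22 genes of transfer RNA charging, Kars, which encodes the lysine enzyme of both cytosol and mitochondria, rose from 2095 ± 130 to 2632 ± 101 normalised reads (SD, n = 3 each), a log2 difference of 0.33 ± 0.06 (limma adjusted p = 0.01). Mars2, the mitochondrial methionine enzyme, fell from 1115 ± 58.8 to 909 ± 63.2 (-0.3 ± 0.07). The median of that list was 0.04. Of 21 genes of ribosomal RNA modification and ribosome assembly, Nsun4, a ribosomal RNA methyltransferase, fell by 0.29 on the log2 scale and none rose (median 0.04). Of 15 regulators of mitochondrial biogenesis 1 rose and 2 fell (median -0.1): Tfeb, a factor of lysosome formation, by 0.19, and Pprc1, a coactivator of nuclear genes for mitochondria, and Myc by -0.26 and -0.45. Of 19 genes of mitophagy and mitochondrial stress, Fis1, an outer membrane protein of mitochondrial fission, rose by 0.3 and none fell (median 0.09). Limma adjusted p values of these 7 genes were 0.01 (Kars) to 0.0456 (Tfeb).

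Of the 7, Kars was called in 19 of 20 fits, Fis1 in 16, Pprc1 in 15, Mars2 and Myc in 14 each, Nsun4 in 13 and Tfeb in 10. Nsun4 missed the threshold with the replicate number as a block (limma adjusted p = 0.0537). Without 1 library the number of called genes ran from 1 (without WT replicate 1 or cKO replicate 3) to 8, with 2 without WT replicate 3 and 4 without WT replicate 2. Tfeb missed the threshold when libraries were scaled to the same total (adjusted p = 0.0639). Pprc1 overlaps Ldb1 on the opposite strand.

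The libraries held 18778776 to 23503756 recovered reads each. The 15 marginal zone B cell markers, all measured, summed to 185468 to 201542 normalised reads in WT and 194400 to 222521 in cKO. They include Cd79a and Ebf1, which are also pan-B cell genes, and the 6 libraries hold no other sorted population. Their sum therefore does not check marginal zone identity. Of these 15, 6 rose and 0 fell (median log2 difference 0.24), where 5.08% of all genes tested rose and 4.97% fell: Asb2 by 1.29, Cd1d1 by 0.7, and Plac8, Cd9, Myof and Mzb1 by 0.24 to 0.5. The most abundant of the 15, Cr2, stood at 65812 ± 2121 in WT and 69586 ± 8713 in cKO, as mean and SD of 3 libraries, and was not called. Of the markers of other cells, 7 follicular B cell genes summed to 40561 to 44993 in WT and 31607 to 40429 in cKO (5 fell and 0 rose, beside the same shares), and 3 of 7 T cell markers, the others not analysed here, to 627 to 723 and 321 to 462 (1 fell). These sums were higher in each WT library than in any cKO library, and their part in the values above was not tested. The follicular sums came close, at 40561 in WT replicate 1 and 40429 in cKO replicate 2. Of the 7 follicular genes, Cxcr5 went the other way, with each cKO library above each WT library (limma adjusted p = 0.0547). Fcer2a was highest in cKO replicate 2, at 7644. The sums of 5 plasma cell genes were also higher in each WT library than in any cKO library, at 9243 to 13617 and 7390 to 8895. Of these genes only Irf4, which B cells also express, fell, from 9404 ± 2381 to 5663 ± 892. The groups overlapped in each of the other 4 (Xbp1, Jchain, Prdm1 and Sdc1). The part of the plasma cell genes in the values above was not tested either.

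The sums of the remaining marker lists overlapped between the genotypes. Of their genes only Zbtb46, of the dendritic cell list, was called, where 10.1% of all genes tested were. It rose from 49.4 ± 13.2 to 94.4 ± 7.82 normalised reads (SD, n = 3 each; limma adjusted p = 0.0252), with each cKO library above each WT library. The sums ran from 190073 to 202631 normalised reads in WT and 193273 to 195969 in cKO for 8 pan-B cell genes. For 10 macrophage genes they ran from 1877 to 3102 and 1552 to 2898, for 5 dendritic cell genes from 311 to 355 and 300.4 to 409, for 4 natural killer cell genes from 279 to 324 and 290 to 406, for 3 neutrophil genes from 55.8 to 151 and 23.7 to 131, and for 2 platelet genes from 64.6 to 88.5 and 39.8 to 66.0.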

How the data were processed

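RNA from 3 WT and 3 cKO libraries of sorted marginal zone B cells was compared, with groups taken from the genotype in the labels. The submitters' processing notes name bcl2fastq 2.17, Trimmomatic 0.36, STAR 2.5.2b and the build mm9. Not given in the sources used here were the counting tool, annotation, strand setting, read length, library type and treatment of reads with several matches. The deposited values are a signal, counts divided by the authors by 1 factor per library: they came out as whole reads within 0.02 of a read, at 18778776 to 23503756 reads per library. The table lists no gene under 61 reads over the 6 libraries, so genes at lower levels could not be compared.

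The members, gene lists and tests were chosen with earlier results of these data known. A symbol listed in error was removed from the translation factors after the data were seen. Of 14864 identifiers 14808 were named through GENCODE M21. Genes with a mean of at least 10 (14855; 9 left out) were fitted on log2(value + 1) with limma 3.58.1 (R 4.3.3; genotype only, moderation with a trend, two-sided), and p values were adjusted over all genes by Benjamini-Hochberg, with a threshold of 0.05. Folds on this scale understate the change of low genes. edgeR 4.0.16 and DESeq2 1.42.0 were run on the recovered reads as alternatives, and the fit was tested on simulated data. There it called 77.8% of the genes changed by 1 (log2) and 46.5% of those changed by 0.5. Smaller changes were not simulated. Nuclear copies were sought with blastn 2.17.0 of each mitochondrial transcript against all other GENCODE M21 transcripts, at GRCm38 coordinates. They were also sought as unchanged windows of 100 bases, with 50 and 150 bases as alternatives.

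All measured protein-coding genes were named, with the 6 most abundant and the lowest transfer RNA. From each nuclear list, up to 4 genes past the threshold were named, or the one with the lowest adjusted p where none passed. mt-Tl2 and mt-Ts2, and the transfer RNAs below 0, were named after their values were seen. Alternatives covered the pseudocount, the filter, the scaling, the moderation, the tool, a replicate block and each library left out.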

Additional observations from a re-analysis of the deposited data

How the results depend on the processing

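Under 19 alternatives none of the 31 genes was called; their lowest adjusted p was 0.065 (mt-Nd1, DESeq2), and a mean of at least 50 left 19 of them tested. Of 575 gene values 549 kept their direction and 26 reversed. mt-Tg reversed to -0.000796 at the same library total and -0.00102 without immunoglobulin genes. Leaving out 1 library, the log2 differences ran from -0.0753 to 0.221 (mt-Co3), -0.276 to 0.0519 (mt-Nd4l), -0.00355 to 0.0496 (mt-Nd5), -0.0476 to 0.0429 (mt-Nd6), -0.0689 to 0.227 (mt-Ta), -0.0635 to 0.2998 (mt-Te), -0.158 to 0.152 (mt-Tg), -0.0315 to 0.137 (mt-Tl1), -0.0238 to 0.22 (mt-Tp), -0.037 to 0.624 (mt-Tr), -0.354 to 0.0649 (mt-Tv), -0.0039 to 0.542 (mt-Tw) and -0.49 to 0.211 (mt-Ty). Their median ran from 0.0443 (without cKO replicate 1) to 0.196 (without cKO replicate 3).

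The share of all 31 genes differed by 0.103 to 0.175 percentage points with 1 library left out, by 0.0704 without the genes whose near-identical copy was measured and by 0.0786 without mt-Co1. For the protein-coding genes these were 0.102 to 0.173, 0.0694 and 0.0775: mt-Co1 is left out in both sums. The transfer RNA share ran from -4.17e-05 (without cKO replicate 1) to 0.00234. The log2 ratio of transfer RNA to protein-coding genes reversed to 0.0355 with means of log2 values and ran from -0.0912 to 0.0864 with 1 library left out, and that of mt-Nd6 to the plus-strand genes from -0.142 to -0.0852; the cause was not tested. Ratios with ribosomal RNAs were not run, as those are not analysed here.

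All genes called numbered 1494, 215 in limma without a trend, and 497 (without WT replicate 3) to 1730 with 1 library left out; without WT replicate 1, cKO replicate 3 and cKO replicate 1 it was 510, 531 and 927. Called nuclear-list genes ran from 1 to 8. The correlations of deviations of same-numbered libraries were -0.0745, -0.02 and 0.147, so the numbers were not taken as pairs. With the replicate as a block 1551 genes and 0 of the 31 were called, and of the nuclear genes named only Nsun4 lost its call (limma adjusted p = 0.0537). For the transfer RNAs the median 95% interval reached 0.61 (log2) to either side, beside 0.18 for the protein-coding genes; the parts of depth and of library scatter in this were not separated.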
